A study of Mus musculus with 4 samples.

Results

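The transcripts described here are the RefSeq non-coding RNAs that 2 mouse tumor cell lines expressed with and without interferon gamma (IFN-γ). They were chosen by signal, as the gene probes of the array that target a RefSeq non-coding accession (prefix NR_) and whose signal the scanner software marked as well above background, on at least 0.5 of the probe's spots, on all 4 arrays. Of 771 such non-coding probes, 350 were marked on none of the arrays, 30 on 1, 51 on 2 and 18 on 3. The 322 marked on all 4 are the members (41.8%), against 59.3% of the coding RefSeq probes (prefix NM_) and 52.5% of all 39429 gene probes. The 322 probes target 270 accessions, of which 31, with 41 probes, have no gene name here. The others belong to 237 named genes, so the probes cover 268 genes and unnamed accessions. By the RefSeq gene types, 161 probes (141 genes) were long non-coding RNAs (lncRNAs), 97 (74 genes) pseudogenes and 9 (8 genes) non-coding variants of coding genes. The other 14 named probes (14 genes), of any remaining RNA type, are called small structural RNAs here. They include Rn28s1, the large ribosomal RNA, which is not small. Because the rule used the signals of all 4 arrays, the presence of these transcripts is not a result, and transcripts seen on only some arrays are given separately.

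The arrays hold AB1-HA mesothelioma cells of BALB/c origin with IFN-γ or with vehicle, and LLC Lewis lung carcinoma cells (titled 3LL) of C57BL6 origin with IFN-γ or with vehicle, each for 24 h. AB1-HA cells carry influenza hemagglutinin as a model antigen, on both of their arrays. Each of the 4 groups held 1 array of total RNA, so no test was run, no p-value is given, and no difference has a replicate check. A probe counts as higher or lower from 2-fold upward. That limit concerns size alone and does not stand for significance.

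An lncRNA is a transcript without a long reading frame that acts as RNA, or whose act of transcription affects its locus. Many lie beside a coding gene or on its opposite strand. Small structural RNAs form the cores of ribonucleoprotein machines that process other RNAs, and the small nucleolar RNAs (snoRNAs) among them are often cut from the introns of host genes whose spliced RNA codes for nothing. IFN-γ acts through JAK kinases and STAT transcription factors, which bind GAS elements, and then through interferon regulatory factors, which bind ISRE elements, to switch on antigen presentation and antimicrobial genes.

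All 4 arrays lay on 1 slide, between 57.6% and 58.3% of the gene probes were well above background on each, and no spot was saturated. The treated arrays carried the coding response to the cytokine: Gbp2, an interferon-inducible GTPase, was higher with IFN-γ by log2 differences of 10.08 in AB1-HA and 11.30 in LLC, and B2m, the light chain of MHC class I, was higher by 1.63 and 1.64. Against lists of cell type markers, Msln, which mesothelioma often expresses, had log2 signals of 4.77 and 5.19 in AB1-HA (IFN-γ, vehicle). In LLC it had −4.80 and −3.37. Pdpn, of the same list, had 2.74 and 2.70 in AB1-HA and −7.21 and −7.95 in LLC, and Krt19 was well above background on all 4 arrays. Wt1, Upk3b, Upk1b, Calb2 and Lrrn4, of the same list, were not well above background in either line. The lung epithelial markers Nkx2-1, Sftpa1, Sftpb, Sftpc, Epcam and Cdh1 were not well above background in either line. Scgb1a1 was on all 4 arrays, at dim signals of −6.22 to −5.04, and Krt7 on all but the LLC vehicle array. Krt18 and Krt8, keratins of simple epithelia and of mesothelium, were bright in LLC, with 6.04 and 2.22 with IFN-γ and 6.39 and 2.57 with vehicle. In AB1-HA they had −4.05 and −7.66 with IFN-γ and −2.53 and −4.86 with vehicle. Krt8 was not well above background in AB1-HA with IFN-γ. All 6 fibroblast markers were well above background on both AB1-HA arrays, and 5 with IFN-γ and 6 with vehicle in LLC. Their levels were not alike. Col1a1 had 3.30 and 3.19 in AB1-HA (IFN-γ, vehicle) and −8.78 and −5.66 in LLC, and Col1a2 5.35 and 5.51 against −6.49 and −6.51. Pdgfra went the other way, with −3.50 and −3.49 against −1.59 and −0.96, and Col3a1 was bright in both lines. Of 7 measured leukocyte genes, Cd3e, Itgam and Csf1r were well above background on all 4 arrays, and Ptprc, Adgre1 and Lyz2 were not in either line. Of 5 endothelial genes, Pecam1 and Kdr were well above background on all 4 arrays, and Cdh5 and Tek were not in either line. Repeat spots of 1 probe gave IFN-γ differences with a median SD of 0.062 in AB1-HA and 0.038 in LLC, which covers spot noise and neither culture nor labelling.

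Before the values, the sequences of the loci on which the results turn are shown. Gm12216, AW011738 and E130112N10Rik were the 3 named lncRNA genes whose member probes were at least 2-fold higher with IFN-γ in both lines. Their start regions, from 250 bases before to 50 bases after the annotated start, are given 5′ to 3′ from RefSeq (build GRCm38.p6). Gm12216 lies on the minus strand at chr11:53859207-53859506, AW011738 on the plus strand at chr4:156203034-156203333, and E130112N10Rik on the plus strand at chr6:125231019-125231318. The windows were searched on both strands for an ISRE (GAAA, any 2 bases, GAAA), a GAS element (TTCNNNGAA) and a TATA box (TATAAA), and capitals mark the matches to an ISRE or GAS element.
Gm12216: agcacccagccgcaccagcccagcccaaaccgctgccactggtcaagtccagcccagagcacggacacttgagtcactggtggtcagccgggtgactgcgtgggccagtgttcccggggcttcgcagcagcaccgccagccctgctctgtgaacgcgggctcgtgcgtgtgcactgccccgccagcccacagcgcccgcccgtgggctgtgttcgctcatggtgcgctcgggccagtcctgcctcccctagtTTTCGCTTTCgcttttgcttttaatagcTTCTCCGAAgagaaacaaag
AW011738: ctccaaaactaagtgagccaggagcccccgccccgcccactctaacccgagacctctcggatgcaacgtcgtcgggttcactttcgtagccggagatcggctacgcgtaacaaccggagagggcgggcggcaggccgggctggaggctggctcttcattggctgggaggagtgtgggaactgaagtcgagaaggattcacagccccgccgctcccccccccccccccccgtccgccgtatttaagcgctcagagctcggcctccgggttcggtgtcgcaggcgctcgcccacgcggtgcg
E130112N10Rik: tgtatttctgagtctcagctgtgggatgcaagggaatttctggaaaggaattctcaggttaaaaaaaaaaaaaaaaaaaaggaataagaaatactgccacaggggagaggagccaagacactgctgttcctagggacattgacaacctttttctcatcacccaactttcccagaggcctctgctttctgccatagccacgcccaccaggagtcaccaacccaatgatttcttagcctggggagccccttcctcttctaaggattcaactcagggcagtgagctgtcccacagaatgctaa
Gm12216 held both elements, an ISRE whose first base is base 253 of the window and a GAS element that begins at base 281, both downstream of the start and not overlapping. The other windows held neither. An ISRE stood in 3.44% of the 32851 promoters in the table and in 3 of the 142 of these transcripts (2.11%), a GAS element in 8.30% and in 13 (9.15%), and a TATA box in 13.6% and in 21 (14.8%). A promoter was on hand for 126 of the 237 named genes. A match describes letters and is not a measured site, and the other windows lacking these letters says nothing about the factors.

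Several members contain microRNA genes, and mature RNAs of Dnm3os, Mir100hg and Dleu2 are given from RefSeq, with the seed (bases 2 to 8) in capitals. Among those not shown are miR-421 and miR-374b of Ftx, and miR-8113, which lies in E130112N10Rik on the opposite strand. Dnm3os, an opposite-strand transcript within Dnm3, holds miR-199a and miR-214. Mir100hg holds miR-100 and miR-125b, and Dleu2, a gene of a region deleted in human chronic lymphocytic leukemia, holds miR-16.
miR-199a-5p: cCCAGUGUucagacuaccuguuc
miR-199a-3p: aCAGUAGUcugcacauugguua
miR-214-3p: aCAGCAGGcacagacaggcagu
miR-100-5p: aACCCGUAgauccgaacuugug
miR-125b-5p: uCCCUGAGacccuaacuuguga
miR-16-5p: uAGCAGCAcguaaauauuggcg
Each of these had a seed of its own. The arrays measured the host transcripts and not the mature RNAs.

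With IFN-γ, non-coding transcripts at least 2-fold higher in AB1-HA were also at least 2-fold higher in LLC. The 4 named genes among them had a coding gene of the interferon response among their 2 closest. In AB1-HA, 6 of the 322 probes were at least 2-fold higher (1.86%) and 2 were at least 2-fold lower (0.621%), where 1.95% and 0.522% of all 20690 probes well above background were, so the shares were close to the background. In LLC, 21 were higher (6.52%, background 2.99%) and 1 was lower (0.311%, background 0.498%). The 6 probes that were higher in AB1-HA, for 5 genes or accessions, were all higher in LLC as well, which makes 100% of the AB1-HA list and 28.6% of the LLC list. Of all 20690 probes, 403 were higher in AB1-HA, 619 in LLC and 266 in both lines (1.29%, against 1.86% of the members). Most of the AB1-HA list of all probes was thus higher in LLC too. The shared part of the LLC list was larger over all probes than over the members. The members' median log2 difference was −0.10 for AB1-HA and 0.04 for LLC, against −0.09 and −0.01 over all probes. Across the 322 probes the 2 IFN-γ differences had a Pearson correlation of 0.42 and a Spearman correlation of 0.09. The comparisons share a slide and no array. A few probes were far higher in both lines, and the correlation without them was not computed.

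**Figure D1:**
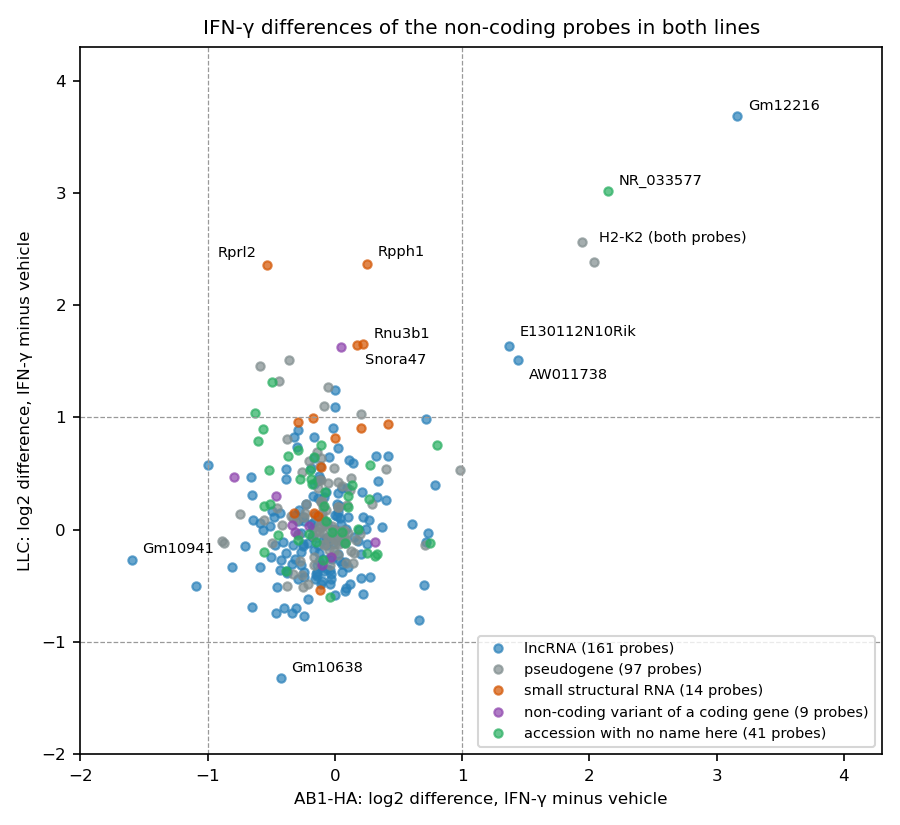
IFN-γ minus vehicle difference of each of the 322 probes in AB1-HA (x axis) and in LLC (y axis), in log2 units, coloured by class. Dashed lines mark 2-fold. The upper right holds Gm12216, NR_033577, both H2-K2 probes, E130112N10Rik and AW011738, and a column of probes, with Rpph1 and Rprl2 at its top, was higher in LLC but not in AB1-HA.

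Gm12216 had the largest IFN-γ difference in both lines. Signals are given as log2 values relative to the 75th percentile of each array's gene probes. Gm12216 had −3.49 with IFN-γ and −6.66 with vehicle in AB1-HA, and −1.85 with IFN-γ and −5.53 with vehicle in LLC. It was 8.96-fold higher with IFN-γ in AB1-HA and 12.9-fold higher in LLC, and both treated arrays lay above both vehicle arrays. In the RefSeq annotation its closest coding genes are Slc22a5, a carnitine transporter, 5286 bases away, and Irf1, an interferon regulatory factor that IFN-γ induces directly, 7115 bases away. Irf1 had 6.16 with IFN-γ and 1.72 with vehicle in AB1-HA, and 6.38 with IFN-γ and 1.95 with vehicle in LLC. It was thus 21.8-fold and 21.6-fold higher. Slc22a5 differed by 0.14 in AB1-HA and −0.33 in LLC, so of the 2 neighbours of Gm12216 Irf1 alone was at least 2-fold higher. With the normexp background correction, which lifts dim signals, Gm12216 was 2.40-fold higher in AB1-HA and 3.37-fold higher in LLC.

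AW011738 overlaps Perm1, a regulator of muscle metabolism, and lies 2466 bases from Isg15, the ubiquitin-like protein that interferons induce. It had −2.44 with IFN-γ and −3.88 with vehicle in AB1-HA, and −5.77 with IFN-γ and −7.28 with vehicle in LLC. The differences were 2.71-fold and 2.84-fold, and both AB1-HA arrays lay above both LLC arrays. Isg15 had 5.98 with IFN-γ and 2.33 with vehicle in AB1-HA, and 3.57 with IFN-γ and −1.51 with vehicle in LLC, so that it too was higher in AB1-HA under each condition. Perm1 had no probe well above background on all 4 arrays. A second probe of AW011738 fell outside the rule, with intensities of 146.8 with IFN-γ and 38.9 with vehicle in AB1-HA and of 4.51 and 8.86 in LLC. In LLC this dim probe was lower with IFN-γ, unlike the member probe, and was not well above background on the IFN-γ array. The LLC difference thus rests on the member probe alone. With normexp the differences of the member probe were 1.91-fold and 1.29-fold, under the 2-fold size.

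E130112N10Rik overlaps Tapbpl, which edits the peptides loaded on MHC class I, and Cd27, a receptor of the TNF receptor family. It had −5.47 with IFN-γ and −6.84 with vehicle in AB1-HA, and −4.51 with IFN-γ and −6.15 with vehicle in LLC. It was 2.59-fold and 3.11-fold higher, and both treated arrays lay above both vehicle arrays. Tapbpl had 2.32 with IFN-γ and −1.96 with vehicle in AB1-HA, and 0.50 with IFN-γ and −3.42 with vehicle in LLC, differences of 19.4-fold and 15.1-fold. With normexp E130112N10Rik was 1.34-fold higher in AB1-HA and 1.82-fold higher in LLC. The annotated genes overlap, and whether RNA of Tapbpl reached the probe was not tested.

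H2-K2 is a transcribed pseudogene of the MHC class I family, whose coding members present peptides to T cells. Its brighter probe had 6.15 with IFN-γ and 4.21 with vehicle in AB1-HA, and 4.55 with IFN-γ and 1.98 with vehicle in LLC. It was 3.85-fold and 5.91-fold higher, and its other probe 4.11-fold and 5.24-fold higher. On all 4 arrays the 2 probes kept the same order, with IFN-γ above vehicle in each line and AB1-HA above LLC in each condition. Its closest coding gene, Vps52, 7621 bases away, had log2 differences of −0.12 in AB1-HA and −0.28 in LLC. The next, H2-K1, 17221 bases away, was 4.35-fold and 6.96-fold higher. H2-K2 and H2-K1 are close copies, the lines come from strains with different H2 haplotypes, and whether the probes also bind RNA of other class I genes was not tested. With normexp the brighter probe's folds were 3.88 and 5.61.

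The fifth was NR_033577, an accession with no gene name here. It had −0.92 with IFN-γ and −3.06 with vehicle in AB1-HA, and −3.72 with IFN-γ and −6.73 with vehicle in LLC. It was 4.42-fold and 8.10-fold higher, and every AB1-HA value lay above every LLC value. With normexp the folds were 2.73 and 1.71.

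**Figure D2:**
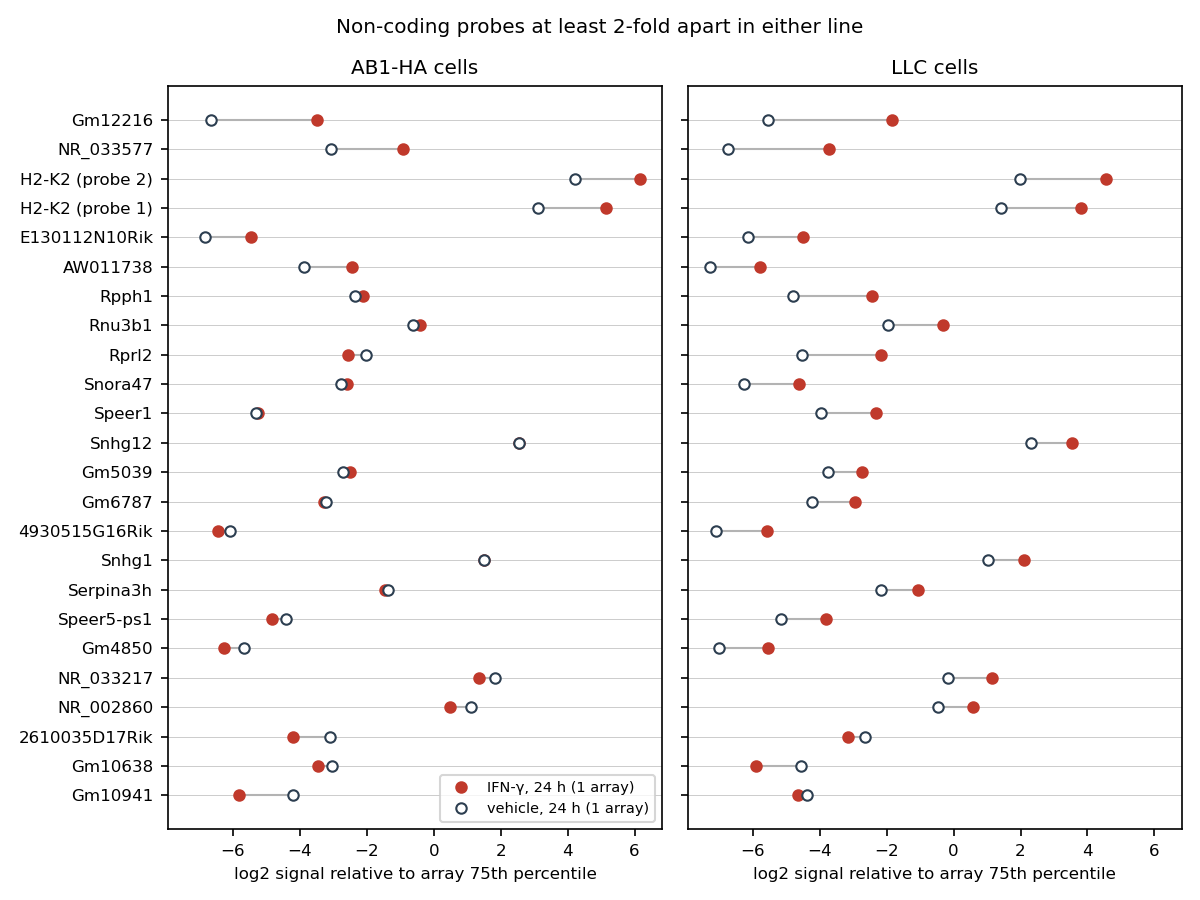
Signals of the 24 probes at least 2-fold apart between IFN-γ and vehicle in either line, as log2 relative to the array's 75th percentile, in AB1-HA (left) and LLC (right). Filled points are the IFN-γ array and open points the vehicle array, with 1 array each. The first 6 rows are apart in both panels, and Rpph1, Rprl2, Rnu3b1 and Snora47 only in the LLC panel.

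The neighbours, the 2 closest coding genes at any distance, were then taken for all members rather than for these alone. Among 126 lncRNA genes with a measured coding gene among their 2 closest, 4 had one at least 2-fold higher with IFN-γ in AB1-HA and 4 had one in LLC. In each line 3 of the 4 lncRNAs were themselves at least 2-fold higher, and they were Gm12216 beside Irf1, AW011738 beside Isg15 and E130112N10Rik at Tapbpl. Those 3 were all of the lncRNA genes at least 2-fold higher in AB1-HA. In LLC the other such lncRNAs were Snhg1 and Snhg12. How often neighbouring genes were higher together over all probes was not counted, so these counts have no background beside them. The exceptions were A730020M07Rik, 77084 bases from F3 (coagulation tissue factor), in AB1-HA and Gm6994, 319349 bases from Dnajc15, in LLC. Their neighbours, farther off than those of the 3, were at least 2-fold higher while they were not. Among 57 pseudogenes, 3 in AB1-HA and 2 in LLC had such a neighbour, and H2-K2 was the member that was higher too. Gm6548 overlaps Eif2ak2, the double-stranded RNA sensor kinase PKR, which was 2.65-fold and 2.41-fold higher. Gm6548 itself had log2 differences of −0.09 in AB1-HA and −0.03 in LLC.

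**Figure D3:**
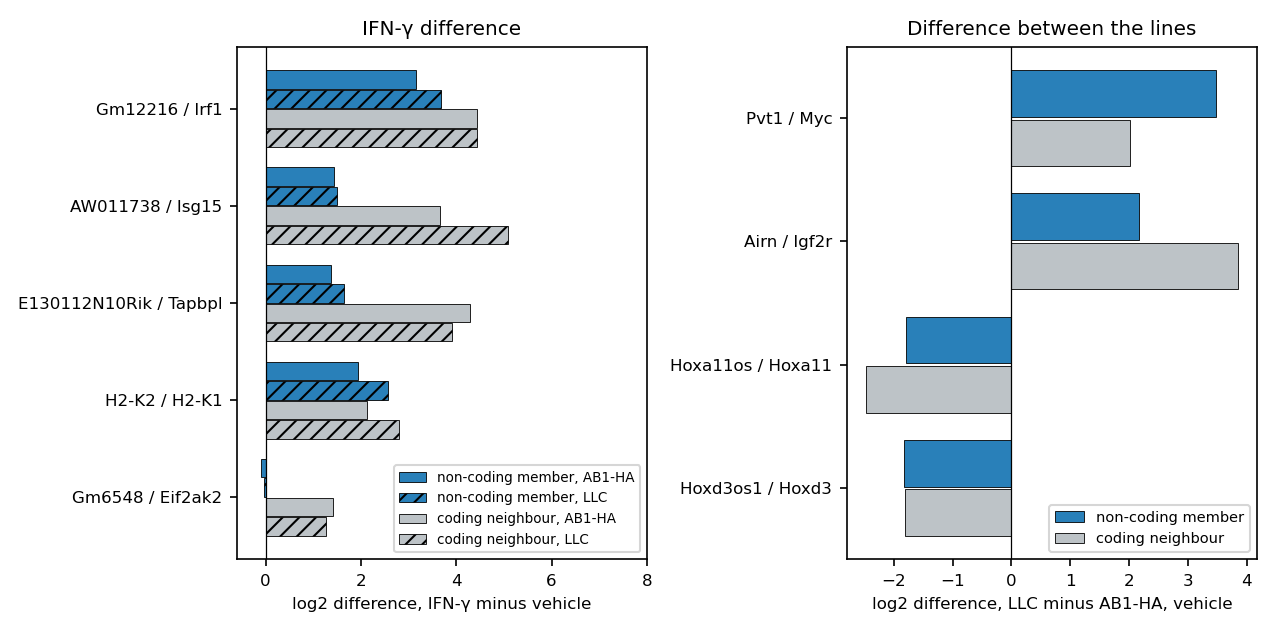
Left, log2 IFN-γ minus vehicle difference of 5 non-coding members (blue) and of a coding gene beside each (grey), in AB1-HA (plain) and LLC (hatched). Right, log2 LLC minus AB1-HA difference on the vehicle arrays for 4 lncRNAs and a neighbour. The first 4 pairs on the left were higher together, Gm6548 stayed near 0 beside Eif2ak2, and all 4 pairs on the right differed in the same direction.

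Of the 14 small structural RNAs, 4 were at least 2-fold higher with IFN-γ in LLC (28.6%, background 2.99%). In LLC 13 of the 14 had a difference above 0, as had 10064 of all 20690 probes, with a median of 0.93 on the log2 scale. In AB1-HA none reached 2-fold either way, 5 of 14 were above 0 and the median was −0.11. As a difference of the 2 effects, 6 of the 14 were at least 2-fold higher in LLC, and over all members 29 were higher (9.01%, background 3.38%) and 2 lower (0.621%, background 1.45%). These comparisons of effects have no test.

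Rpph1, the RNA of RNase P, which trims the 5′ ends of transfer RNA precursors, had −2.43 with IFN-γ and −4.79 with vehicle in LLC. In AB1-HA it had −2.12 with IFN-γ and −2.36 with vehicle. It was 5.16-fold higher with IFN-γ in LLC and 1.19-fold higher in AB1-HA, and the LLC vehicle value stood below the 3 others, which lay close together. Rprl2, a gene named as related to the same RNA, had −2.18 with IFN-γ and −4.54 with vehicle in LLC, 5.12-fold higher, and −2.55 with IFN-γ and −2.02 with vehicle in AB1-HA, 1.45-fold lower. Rnu3b1, a U3 snoRNA of ribosomal RNA processing, had −0.32 with IFN-γ and −1.97 with vehicle in LLC, and −0.40 and −0.62 in AB1-HA. Snora47, a snoRNA of the class that guides pseudouridylation, had −4.62 with IFN-γ and −6.27 with vehicle in LLC, and −2.61 and −2.78 in AB1-HA. The LLC differences of these last were 3.15-fold and 3.12-fold.

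The next members of this class were just under 2-fold in LLC. Rnu12, the U12 RNA of the minor spliceosome, was 1.99-fold higher, Snora74a 1.95-fold, and Rmrp, the RNA of the RNase MRP that also cuts ribosomal RNA precursors, 1.92-fold. Rnu1b6, a U1 RNA, was 1.88-fold higher and Terc, the RNA template of telomerase, 1.76-fold. Rn28s1, the large ribosomal RNA, differed by 0.12 and Rn4.5s by 0.15 on the log2 scale, and Snord123 was the member below 0, at −0.54.

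The signals of this class were mostly lowest on the LLC vehicle array. For 13 of the 14 structural RNAs the lowest of the 4 signals was on that array (92.9%), against 35.4% of all members and 32.2% of all probes. As a measure outside the members, 41 probes of replication-dependent histone genes, whose messages mostly lack a poly(A) tail as most of these RNAs do, were lowest on the LLC vehicle array in 25 cases (61.0%). Their median IFN-γ difference was 0.10 in LLC and −0.28 in AB1-HA, and 1 of the 41 was at least 2-fold higher in LLC. The part of that array in these differences was not tested, and with 1 array a group it cannot be told apart from the treatment. With normexp, Rpph1 was 2.12-fold, Rprl2 2.73-fold, Rnu3b1 2.80-fold and Snora47 1.39-fold higher in LLC.

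**Figure D4:**
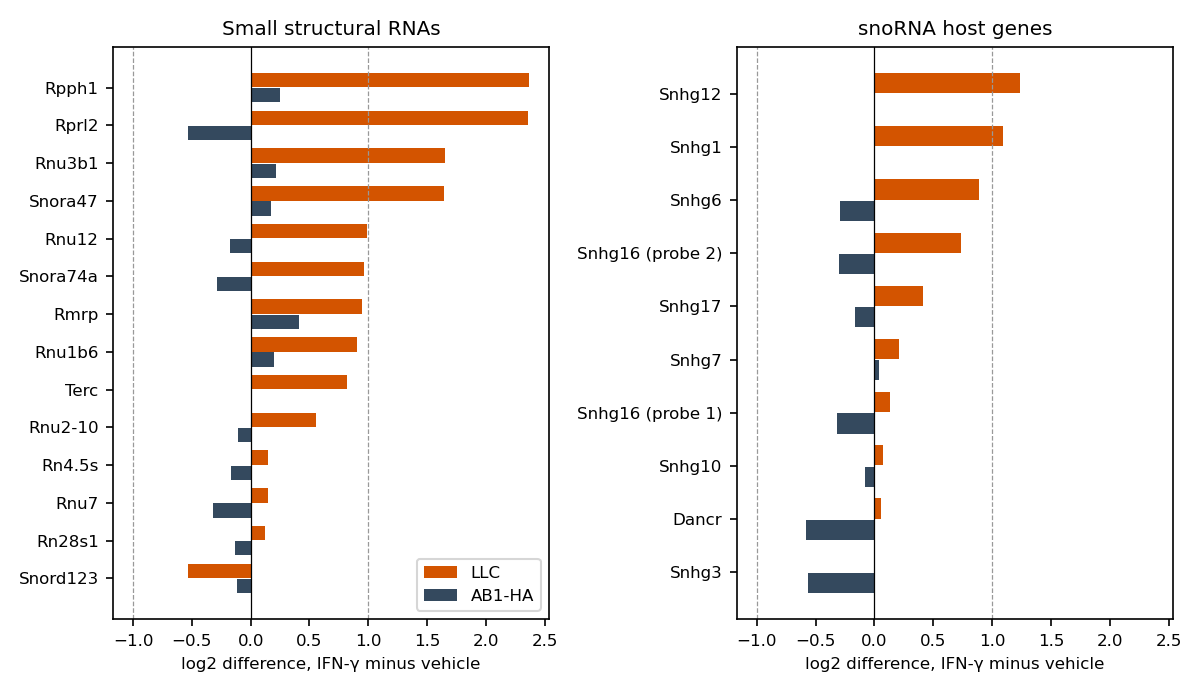
Log2 IFN-γ minus vehicle difference of the 14 small structural RNAs (left) and of the 10 probes of snoRNA host genes (right), in LLC (orange) and AB1-HA (dark). Dashed lines mark 2-fold. Rpph1, Rprl2, Rnu3b1, Snora47, Snhg12 and Snhg1 pass 2-fold in LLC, and no bar does in AB1-HA.

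The list of 21 host genes of snoRNAs held 9 members with 10 probes. In LLC 2 of the 10 probes were at least 2-fold higher (background 2.99% of all probes) and 9 were above 0, with a median of 0.31, while in AB1-HA none was 2-fold apart, 2 were above 0 and the median was −0.23. Snhg12 had 3.54 with IFN-γ and 2.30 with vehicle in LLC, against 2.55 on both arrays of AB1-HA. It was 2.36-fold higher in LLC, and the AB1-HA arrays were level. Snhg1 had 2.11 with IFN-γ and 1.02 with vehicle in LLC, 2.13-fold higher, and 1.51 with vehicle in AB1-HA, where the IFN-γ array was level with it. Snhg6 was 1.85-fold higher in LLC. Scaled to the array median, Snhg1 came to 0.95 on the log2 scale, under 2-fold, and that scaling lowered the LLC differences of all probes by 0.14 at the median.

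Other members at least 2-fold higher in LLC alone were pseudogenes, unnamed accessions and Speer1, many of them dim. Speer1, a coding gene's non-coding variant from a rodent family expressed in testis, had −2.32 with IFN-γ and −3.95 with vehicle in LLC, 3.09-fold higher. The pseudogenes 4930515G16Rik, Gm4850 and Speer5-ps1 were 2.85-fold, 2.75-fold and 2.51-fold higher in LLC, at vehicle signals of −7.09, −7.00 and −5.15, and with normexp the first and the second came to 1.35-fold and 1.40-fold. Gm6787, Serpina3h and Gm5039 were 2.41-fold, 2.15-fold and 2.05-fold higher. The brighter NR_033217 was 2.48-fold higher in LLC and 1.41-fold lower in AB1-HA. Serpina3h belongs to a family of near-identical serpin genes, so its probe may bind RNA of its relatives.

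Few members were lower with IFN-γ, and 0 were lower in both lines, where 0.0387% of all probes were. In AB1-HA, Gm10941, which overlaps Pofut2, a fucosyltransferase, had −5.81 with IFN-γ and −4.22 with vehicle, 3.02-fold lower. In LLC it differed by −0.27. In AB1-HA 2610035D17Rik, between Slc39a11 and Sox9, had −4.20 with IFN-γ and −3.11 with vehicle, 2.13-fold lower, and in LLC it was 1.42-fold lower. In LLC, Gm10638, which overlaps the ubiquitin ligase gene Siah1a, had −5.90 with IFN-γ and −4.57 with vehicle, 2.51-fold lower, and in AB1-HA it was 1.34-fold lower. With normexp these came to 1.15-fold, 1.69-fold and 1.41-fold, so that no member was at least 2-fold lower in either line under that correction.

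Malat1 and Neat1 differed between the lines and were under 2-fold apart with IFN-γ. Malat1, a nuclear speckle RNA, had 0.80 with IFN-γ and 0.79 with vehicle in LLC, and −1.38 and −1.62 in AB1-HA. Neat1, the scaffold of paraspeckles, had 3.39 with IFN-γ and 3.52 with vehicle in LLC, and 1.53 and 1.28 in AB1-HA. Both LLC arrays lay above both AB1-HA arrays for each, by 5.34-fold for Malat1 and 4.70-fold for Neat1 on the vehicle arrays. None of the 9 probes of nuclear body and chromatin lncRNAs (Malat1, Neat1, Norad, Tug1) was 2-fold apart with IFN-γ in either line, and neither was any of 14 probes of p53 and cancer-linked lncRNAs, which share members with them. Between the lines, on the vehicle arrays, 3 of the 9 were at least 2-fold higher in LLC and 0 lower, and of the 14, 6 were higher and 1 lower (background 11.1% higher and 14.9% lower). With IFN-γ, the 3 imprinted, 3 developmental, 4 immune, 4 microRNA host and 1 X-inactivation centre probes of the lists were under 2-fold too. This does not hold between the lines, where some of them were at least 2-fold apart. A list of 40 interferon-linked transcripts and pseudogenes had 4 genes on the array with a non-coding accession, of which H2-K2 was the member. Norad, which holds Pumilio proteins, differed between its 4 probes by −0.99 to 0.13 between the lines, and of 3 Tug1 probes 1 was at least 2-fold higher in LLC.

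The lines differed in more members than the treatment did. On the vehicle arrays 39 of the 322 probes were at least 2-fold higher in LLC (12.1%, background 11.1%) and 77 were at least 2-fold lower (23.9%, background 14.9%). The median difference was −0.38 over members and −0.15 over all probes. The small structural RNAs were lower in LLC in 10 of 14 cases and higher in none, with a median of −1.26, and lncRNAs were higher in 22 and lower in 39 of 161. This comparison shares the LLC vehicle array with the IFN-γ difference in LLC. Of 41 genes with several probes here, 10 had probes at least 2-fold apart in this comparison, and 0 had probes at least 2-fold in opposite directions.

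Pvt1, a lncRNA beside the Myc oncogene at a common site of retroviral insertion, had the largest difference toward LLC. Its brighter probe had 4.67 with IFN-γ and 4.13 with vehicle in LLC, and 0.26 and 0.65 in AB1-HA, 11.2-fold higher in LLC on the vehicle arrays. Its second probe was 30.8-fold higher. Myc, the closest coding gene, had 4.26 with IFN-γ and 4.36 with vehicle in LLC, and 2.29 and 2.36 in AB1-HA, so it was 4.02-fold higher in LLC. Neither Pvt1 nor Myc was 2-fold apart with IFN-γ in either line.

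Airn, the antisense RNA that silences the paternal copy of Igf2r in mice, had −1.83 with IFN-γ and −1.96 with vehicle in LLC, and −4.13 on both arrays of AB1-HA. It was 4.50-fold higher in LLC (2.63-fold with normexp). Igf2r, which it overlaps, had 1.70 with IFN-γ and 2.23 with vehicle in LLC, and −1.32 and −1.62 in AB1-HA, 14.5-fold higher. Hoxa11os, opposite the homeobox gene Hoxa11, had 1.44 on both LLC arrays, and 3.42 with IFN-γ and 3.23 with vehicle in AB1-HA, 3.45-fold lower in LLC. Hoxa11 was 5.57-fold and Hoxa10 8.12-fold lower in LLC. Hoxd3os1 was 3.54-fold lower in LLC, and Hoxd3 3.51-fold. For Airn and the Hox transcripts the 2 arrays of each line lay close together and the lines did not overlap.

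Over all 126 lncRNAs with a measured neighbour, 28 had one at least 2-fold higher in LLC and 6 of these were higher themselves, while 19 had one at least 2-fold lower and 7 of these were lower themselves. The pairs named above are therefore the part of a mixed set in which both differed alike. These counts of neighbours too have no background over all probes beside them. Snhg3, 2.25-fold lower in LLC, lies beside Phactr4, which was at least 2-fold higher.

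**Figure D5:**
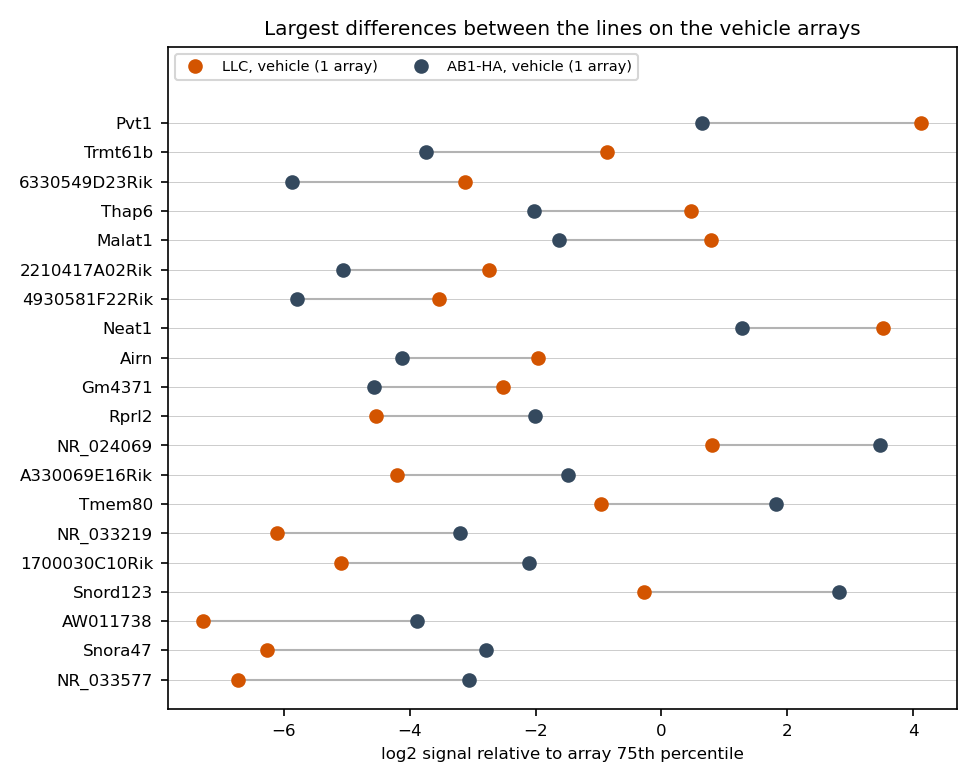
Signals on the vehicle arrays of LLC (orange) and AB1-HA (dark) for the 10 largest differences in each direction, as log2 relative to the array's 75th percentile, with 1 array each. Pvt1 is at the top and NR_033577 at the bottom.

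Other members lower in LLC included Snord123, a snoRNA of the class that guides methylation, with −0.27 in LLC and 2.82 in AB1-HA on the vehicle arrays, 8.52-fold lower. Snora47 was 11.2-fold and AW011738 10.6-fold lower in LLC, and with normexp these came to 2.07-fold and 2.05-fold. Morrbid, which controls the life span of myeloid cells in mice and whose closest coding gene is Bcl2l11 (the death factor Bim), had −4.01 in LLC and −1.83 in AB1-HA, 4.54-fold lower (2.59-fold with normexp). Bcl2l11 differed by 0.33 on the log2 scale. Ftx, of the X-inactivation centre, was 2.33-fold lower in LLC, and 1.32-fold with normexp, under the 2-fold size. Toward LLC, Trmt61b, typed here as an lncRNA, was 7.28-fold higher, and Crnde, a lncRNA raised in human colorectal tumors, 2.43-fold. With normexp these came to 4.77-fold and 1.92-fold.

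E130112N10Rik, whose microRNA is not shown, was at least 2-fold higher with IFN-γ in both lines, as given above. The microRNA hosts shown above were under 2-fold with IFN-γ. Dnm3os came closest, with −2.80 with IFN-γ and −3.79 with vehicle in LLC, 1.98-fold higher, and with −3.76 and −4.47 in AB1-HA, 1.64-fold higher. Mir100hg, the source of the miR-100 and miR-125b shown above, was 2.35-fold higher in LLC than in AB1-HA on the vehicle arrays. Dleu2, the source of miR-16, was 2.30-fold lower in LLC. With normexp Mir100hg came to 1.66-fold and Dleu2 to 1.53-fold, both under the 2-fold size. Mir17hg and Mir22hg, both well above background, were 1.66-fold and 1.36-fold higher in LLC.

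The members with the brightest probes were mostly pseudogenes. The 10 highest mean signals were those of Gm8580, Gm5523, Gm8709, Gm6548, Gm12070, Gm6981, Gm10653, Gm5069 and Gm6498 and of 1 unnamed accession, at mean log2 values of 7.04 to 8.04. Gm8580 had 8.37 with IFN-γ and 8.32 with vehicle in LLC, and 7.69 and 7.77 in AB1-HA. Probes of such processed copies may bind the message of the parent gene, and whether they did was not tested.

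At the limit of the rule, the members with the lowest mean intensity were D430020J02Rik, Gm833 and Gm3020 (10.8, 11.7 and 12.3 units, where the 75th percentile of an array was 1380 to 1598). Of the probes marked on 3 arrays, the brightest outside the rule was Macroh2a3, a histone variant pseudogene, with 3114 with IFN-γ and 3720 with vehicle in LLC and with 12.6 and 8.95 in AB1-HA.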

How the data were processed

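Total RNA of 4 cultures was the source of the Cy3-labelled copies hybridised to 1-colour Agilent mouse arrays, 1 array a group. The labelling kit named in the labels copies RNA from its poly(A) tail, so signals of RNAs without a tail are less direct. The scanner files hold intensity values as deposited. Per the file headers, background was subtracted by Agilent Feature Extraction 10.7.1.1, and the annotation is of build mm9. The authors' value table holds deposited log2 values; each column correlated at 0.999 with the array's scaled log2 signals after centring by probe, in the same direction, with column medians of −0.08, 0.11, 0.08 and −0.13 (AB1-HA IFN-γ, AB1-HA vehicle, LLC IFN-γ, LLC vehicle). Its making is not described in the labels or headers.

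Control spots and 166 to 201 outlier spots an array were left out, each array was divided by its 75th percentile, log2 was taken and a probe's spots were averaged. Names came from RefSeq (GRCm38.p6) through the accession, for 281 of the 322 member probes, and distances between genes are from that assembly. For a gene with several probes the brightest is given unless stated. Members and gene lists were chosen with earlier results of these data known. Genes are named by rank of difference (10 each way for each comparison, 5 for differences of effects), by signal (10), by list and by neighbour; histone genes, the neighbour counts and the lowest-array counts were added after the values were seen. The calling of 2-fold differences was checked on simulated data, which covers the code and not the error between cultures. Alternatives were array median scaling, quantile and cyclic loess normalization, normexp (limma 3.58.1, R 4.3.3, offset 50, on median spot signals), outlier spots kept, no background filter, 1 probe for each gene and the authors' table. Python 3.11.15, numpy 2.4.6, pandas 2.3.3 and matplotlib 3.10.9 were used. The number of arrays limits the precision.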

Additional observations from a re-analysis of the deposited data

Results flagged for a closer look

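In 6 members the 2 lines moved in opposite directions with IFN-γ, each by at least 0.5 on the log2 scale. The share of all probes that did so was not counted, so the number is not a result about the members. With 1 array a group, the difference was not tested. The LLC difference minus the AB1-HA difference was 2.89 for Rprl2, 2.04 for Gm4850, 1.67 for NR_002860, 1.57 for 2900052N01Rik and 1.05 for NR_003280, all higher in LLC and lower in AB1-HA with IFN-γ. It was −1.46 for Gm13375, which was lower in LLC and higher in AB1-HA. With normexp the difference of effects came to 0.17 for Gm4850, with an LLC difference of 0.49, and to −0.16 for Gm13375.

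Non-coding probes outside the rule showed signal on 1 array of a pair alone, and their folds are lower bounds against the higher of the probe's own signal and the lowest signal well above background on the other array. In AB1-HA, Gm4759 was at least 5.01-fold and 1500009C09Rik (a second probe of a member) at least 2.34-fold higher with IFN-γ, while Gm10789 was at least 2.95-fold, Zscan4a at least 2.65-fold and BC031361 at least 2.14-fold lower. In LLC, 6330407A03Rik was at least 2.41-fold and Gm10649 at least 2.28-fold higher. There Fbxl12os (a second probe of a member) was at least 3.62-fold and 4930539J05Rik at least 2.19-fold lower. All had intensities between 14.0 and 39.7 units on the array where they were seen. The member probe of Fbxl12os was not lower in LLC, with a log2 difference of 0.20, so the probes of this gene did not go together.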

How the results depend on the processing

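Of 63 differences of at least 2-fold among the named members, 63 kept their direction and size class with quantile normalization, with outlier spots kept and in the authors' table, 62 with array median scaling, 61 with cyclic loess and 41 with normexp, where 38 folds were over 1.5 times smaller. Normexp adds an offset and so compresses dim probes; under it the difference of effects of 1700096K18Rik turned to 0.18. Counts of the 322 members higher and lower under normexp were 10 and 0 in LLC and 17 and 40 between the lines. They were 14 and 0 for the effects, with 0 lower in AB1-HA. With no background filter they were, of 770 probes, 26 and 36 in AB1-HA, 91 and 143 between the lines, and 98 and 44 for the effects. In LLC they were 53 and 30 of 771 probes. The shares of all probes were not counted under normexp or without the filter, so these counts have no background beside them. Lower effects numbered 4 with quantile and with cyclic loess normalization. Medians over members moved in LLC to −0.11 with array median scaling, −0.038 with quantile normalization, 0.22 without the filter and 0.078 with 1 probe for each gene; in AB1-HA to −0.027 with loess and −0.20 without the filter; and between the lines to −0.21 with loess, −0.28 with normexp and −0.27 without the filter. Where not given by a setting's construction, the cause was not tested. No paired analysis was possible because the groups compared share fewer than 2 replicate numbers, with 1 array each, and a fit over both lines with the line as a term was not run.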
